A study of Mus musculus with 3 samples.

Results

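Collagens are trimers of chains, and each chain is the product of its own gene. The genes described here are those whose symbol in the count table is Col, a number, the letter a and a number, which picks 43 of 28676 genes. Of the 43, 36 had at least 50 unique molecular identifiers (UMIs, one tag for each captured mRNA molecule) in the kept cells and are described by their levels. The other 7 were Col22a1 with 29 UMIs, Col6a5 with 25, Col28a1 with 21, Col24a1 with 8, Col6a6 with 5, Col19a1 with 4 and Col10a1 with 2, all over 13964 cells, and they are not described further. Among the genes the results turn on, and by position in mm10, Col1a1 lies at chr11:94936224-94953042, Col1a2 at chr6:4504814-4541544, Col3a1 at chr1:45311538-45349706, Col4a1 at chr8:11198423-11312826, Col8a1 at chr16:57624258-57754737, Col9a3 at chr2:180597790-180622189, Col11a2 at chr17:34039437-34066685 and Col27a1 at chr4:63214004-63334991.

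Cells came from the medial vestibular nucleus (MVN), a brainstem nucleus that receives input from the inner ear, of C57BL/6J mice operated on at postnatal day 20 and killed 1 day later. In the 11 mice with unilateral labyrinthectomy (UL) the inner ear was destroyed on one side, and the MVN of the operated side (ULI) and of the other side (ULC) gave 1 library each. In the 10 control mice only the tympanic bulla was opened, and they gave 1 library. Each library pooled its mice, ULI and ULC came from the same animals, and since the treatment label gives labyrinthectomy for every sample, the control was identified by the tissue source given in its record and by the methods. With 1 library per condition, library and condition cannot be told apart, and no test between conditions could be run.

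The control library held 27019650 UMIs in 4816 barcodes, ULI 17428194 in 5062 and ULC 12768983 in 4998. Median UMIs per kept cell were 3177, 2100 and 931 in that order. Cells were clustered without the collagen genes, and clusters were named from listed markers, with the ending "-like" for a name that rests on markers alone. Of 27 clusters, 13 classes had at least 20 cells in 2 or more libraries. The smallest was the fibroblast-like class, with 27, 26 and 29 cells in control, ULI and ULC, and the pericyte-like class had 38, 115 and 33. The fibroblast-like class is called meningeal below as a name only, and where its cells lay in the tissue was not tested. All 8 fibroblast markers were detected, with Dcn between 3358 and 7902 UMIs per 1000000 UMIs (CPM) in the 3 libraries and Slc22a6 at 0 in ULI. The smooth muscle-like class (110, 298 and 160 cells) carried Acta2 at 4565 to 6212 CPM, and its summed pericyte markers were still at 24572 to 53048 CPM against 56388 to 69935 in the pericyte-like class. Other cells' markers were also present in the fibroblast-like class. There the 7 pericyte markers summed to 6003, 5033 and 3567 CPM over control, ULI and ULC, an order that the summed collagens shared, the 7 mature oligodendrocyte markers to 4707, 101 and 786, the 6 OPC markers to 2167, 1594 and 2512 and the 7 choroid plexus markers to 170, 319 and 1553. The part of these foreign markers in the results was not tested.

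Collagens form the scaffold of tissues. Fibrillar chains such as those of types I, III and V assemble into cables, type IV chains build the net of basement membranes around vessels and under the pia, and type VI chains form beaded filaments. Types IX and XX belong to the fibril-associated collagens, types VIII and X to the short-chain nets, types XV and XVIII to the multiplexins of basement membranes, and types XIII, XVII, XXIII and XXV cross the cell membrane. In the brain, fibrous collagen is known mainly from the meninges and the walls of larger vessels, whereas type IV collagen surrounds capillaries.

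Type IV chain genes lie in head-to-head pairs. Whether this bears on the chain ratios given further on was not tested. The annotated starts of Col4a1 (minus strand) and Col4a2 (plus strand) overlap at chr8:11312805-11312826 by 22 bases. The starts of Col4a4 (minus strand) and Col4a3 (plus strand) are parted by the 71 bases of chr1:82586850-82586920, and those of Col4a6 and Col4a5 on chromosome X by 1308 bases. Both short stretches are shown on the plus strand (mm10, GRCm38.p6), with capitals for GGGCGG or its reverse complement, a motif of GC boxes:

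Col4a1 and Col4a2: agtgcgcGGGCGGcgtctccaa

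Col4a4 and Col4a3: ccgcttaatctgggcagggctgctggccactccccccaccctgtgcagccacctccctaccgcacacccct

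Promoter windows are shown next for a few genes that were each high in another class, namely Col1a2 and Col3a1 (fibroblast-like), Col8a1 and Col8a2 (choroid plexus-like) and Col27a1 (microglia-like). Sequences run 5′ to 3′ on the gene's strand, before the RefSeq start and without annotated exon bases. They are chr6:4505370-4505492 (plus strand, lying between 2 annotated exons of Col1a2), chr1:45311288-45311537 (plus), chr16:57754738-57754987 (minus), chr4:126286544-126286792 (plus) and chr4:63215162-63215411 (plus) in the order given. The Col27a1 stretch also lies inside its own gene, after the annotated start given above. Capitals mark the motif TATAAA (known from TATA boxes), the motif CCAAT (known from CCAAT boxes) and again GGGCGG, each on either strand:

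Col1a2: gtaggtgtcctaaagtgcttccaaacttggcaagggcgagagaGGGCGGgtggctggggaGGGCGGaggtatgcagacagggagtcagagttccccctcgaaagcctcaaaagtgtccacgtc

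Col3a1: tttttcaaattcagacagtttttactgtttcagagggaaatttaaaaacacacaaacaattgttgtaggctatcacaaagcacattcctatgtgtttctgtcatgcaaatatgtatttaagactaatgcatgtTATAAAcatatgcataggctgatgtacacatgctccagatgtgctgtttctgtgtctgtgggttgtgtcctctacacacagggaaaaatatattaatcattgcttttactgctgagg

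Col8a1: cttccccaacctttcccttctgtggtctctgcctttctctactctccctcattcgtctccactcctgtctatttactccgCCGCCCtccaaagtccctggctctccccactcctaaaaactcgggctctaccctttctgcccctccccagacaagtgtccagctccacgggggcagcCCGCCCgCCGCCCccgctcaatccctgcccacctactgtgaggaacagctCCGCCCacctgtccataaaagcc

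Col8a2: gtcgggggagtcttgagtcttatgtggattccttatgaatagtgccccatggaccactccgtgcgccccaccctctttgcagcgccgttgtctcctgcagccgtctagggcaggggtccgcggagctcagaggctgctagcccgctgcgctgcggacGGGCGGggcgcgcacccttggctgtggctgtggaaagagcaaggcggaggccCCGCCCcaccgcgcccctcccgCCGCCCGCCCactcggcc

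Col27a1: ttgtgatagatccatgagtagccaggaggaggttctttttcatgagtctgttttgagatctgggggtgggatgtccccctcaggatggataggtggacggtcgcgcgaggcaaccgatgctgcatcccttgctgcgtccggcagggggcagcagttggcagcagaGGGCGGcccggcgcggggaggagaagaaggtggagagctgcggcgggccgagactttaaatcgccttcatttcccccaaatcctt

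TATAAA was found in Col3a1 alone of the 5 genes, and GGGCGG 2 times in Col1a2, 4 times each in Col8a1 and Col8a2 and 1 time in Col27a1. Over the 250 bases before each start, 37 windows of 34 collagen chain genes were at hand. GGGCGG was in 56.8% of those windows and in 32.7% of all 32851 windows, TATAAA in 13.5% and 12.4%, and CCAAT in 32.4% and 33.8%. A match is a run of letters and not a shown binding site.

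Collagen chain mRNA was most abundant in the meningeal and vascular classes. Summed over the members, the mean level was 26894 ± 11219 CPM in fibroblast-like cells (SD over the 3 libraries, which is also a spread over the 3 conditions), 9413 ± 3229 in pericyte-like and 7085 ± 1215 in smooth muscle-like cells. Endothelial-like cells stood at 2313 ± 695 CPM. The neural and epithelial classes followed, with 2166 ± 46.4 CPM in choroid plexus-like cells, 1732 ± 134 in newly formed oligodendrocyte-like cells, and 1135, 1113 and 781 CPM in ependymal-like, oligodendrocyte precursor (OPC)-like and astrocyte-like cells. Microglia-like cells (371 CPM), neuron-like cells (319 ± 61.5, n = 2, since control held 8 such cells), mature oligodendrocyte-like cells (315), and perivascular macrophage-like cells (61.4) were low. The libraries of the pericyte-like and smooth muscle-like classes overlapped in range, and so did those of endothelial-like and choroid plexus-like cells.

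**Figure D1:**
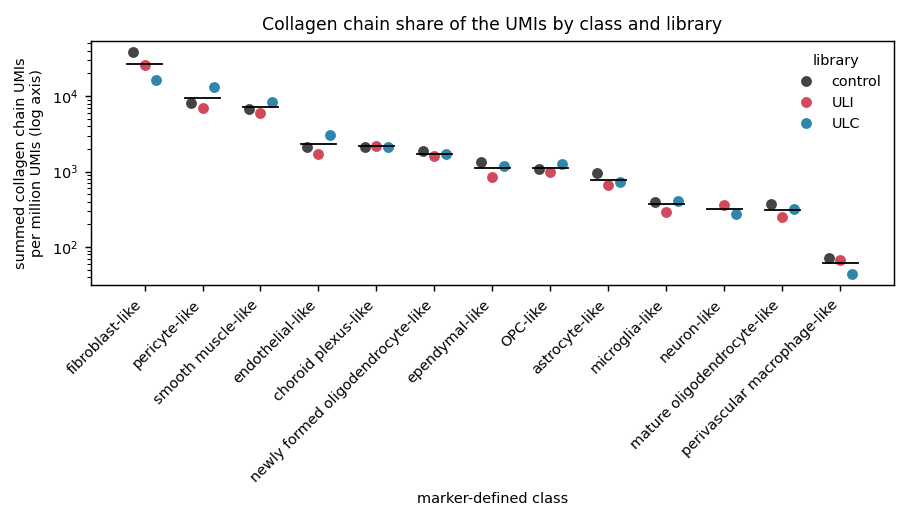
Summed collagen chain CPM (log axis) for each marker-defined class, with 1 point per library and a line at the mean; neuron-like cells have 2 libraries because control held 8 such cells. All 3 libraries of the fibroblast-like class lie above every library of the other classes, and within that class control is highest and ULC lowest.

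The family that dominated differed between classes. Fibrillar chains made up 53.0% of the collagen CPM of fibroblast-like cells and type IV chains 23.1%. In endothelial-like cells 94.0% was type IV, in pericyte-like cells 74.8% and in smooth muscle-like cells 70.7%. Fibril-associated chains were 75.7% of the collagen CPM in newly formed oligodendrocyte-like cells and 35.7% in choroid plexus-like cells, where short-chain genes made up 48.0%, and fibrillar chains 77.5% in microglia-like, 67.4% in astrocyte-like and 58.5% in OPC-like cells.

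Each member was assigned to the class in which its mean CPM was highest. Fibroblast-like cells were the highest class of 18 of the 36 members, against 7.01% of all 15875 genes with at least 50 UMIs. Choroid plexus-like cells led for 5 (4.81% of all genes), newly formed oligodendrocyte-like cells for 5 (7.53%), OPC-like cells for 3 (12.5%), pericyte-like cells for 2 (6.71%), and smooth muscle-like (4.74%), microglia-like (9.77%) and neuron-like cells (12.1%) for 1 each. Astrocyte-like, ependymal-like, endothelial-like, mature oligodendrocyte-like and perivascular macrophage-like cells led for none. The leading class was the highest in all 3 libraries for 23 of 36 members, a count without Col25a1, whose leading class had only 2 libraries. The lowest library of the leading class was above the highest of the second class for 22 of 36. The shares of all genes with these traits were not computed, so neither count sets the members apart from other genes.

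**Figure D2:**
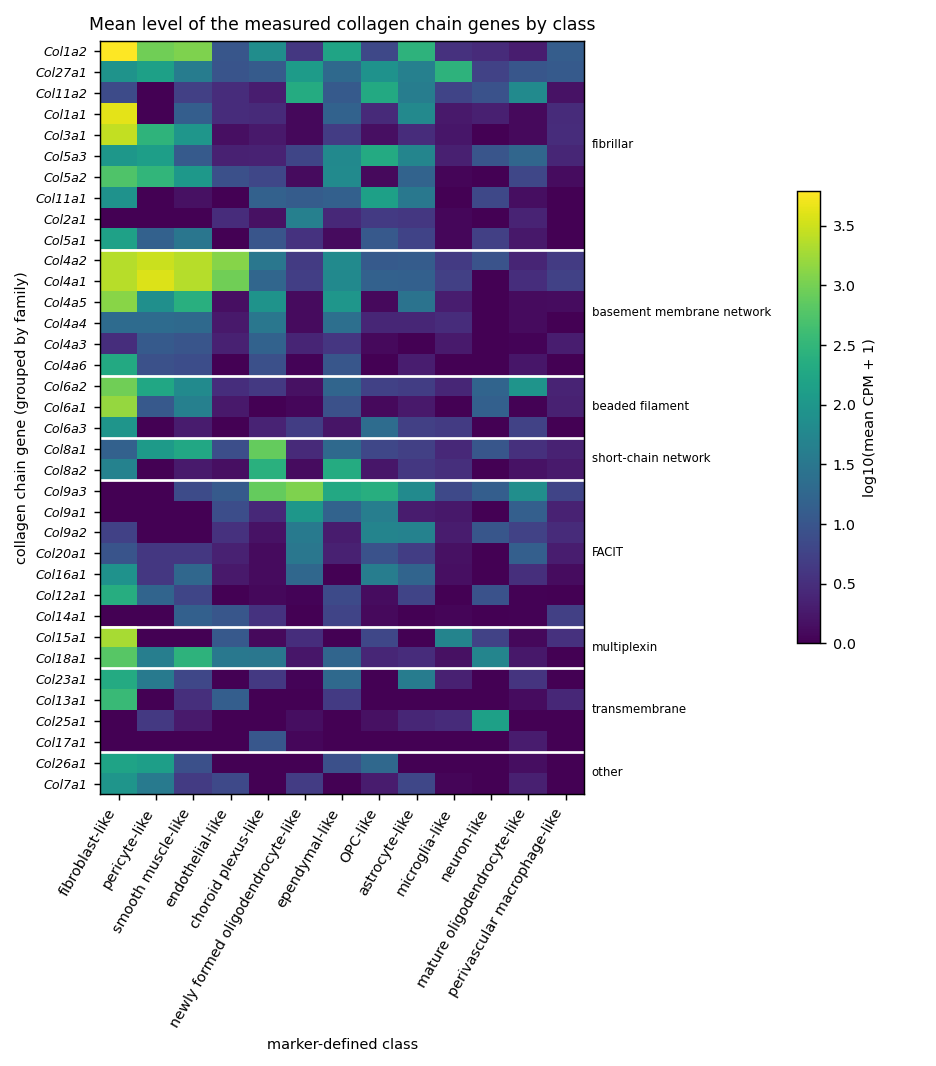
Mean CPM (log10 of CPM + 1, colour) of the 36 measured collagen chain genes in 13 classes, with genes grouped by family and classes ordered by summed collagen. Col1a1, Col1a2, Col3a1 and the type VI genes are brightest in fibroblast-like cells, Col4a1 and Col4a2 in the meningeal and vascular classes on the left, Col8a1 in choroid plexus-like cells and Col9a3 in newly formed oligodendrocyte-like cells.

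The type I, III and V genes code for the chains of fibrils. In fibroblast-like cells Col1a2 was at 8595, 6611 and 3164 CPM in the control, ULI and ULC libraries, Col1a1 at 6278, 4681 and 2071, and Col3a1 at 4838, 2416 and 1131. Control was the highest and ULC the lowest library for each of the 3 genes. Col1a2 was also found in smooth muscle-like cells (1698, 985 and 718 CPM) and pericyte-like cells (889, 952 and 885), but Col1a1, whose product joins that of Col1a2 in type I collagen, had 0 UMIs in 186 pericyte-like cells against 346 UMIs of Col1a2, where 3 UMIs would be 8.02 CPM. The ratio of Col1a1 to Col1a2 UMIs was 0.719 (exact 95% counting interval 0.670 to 0.772) in fibroblast-like cells, 0.0136 (0.00842 to 0.0209) in smooth muscle-like and 0.202 (0.162 to 0.25) in astrocyte-like cells. In choroid plexus-like cells it was 0.00897 (0.00243 to 0.0231). A ratio of UMIs of 2 genes is not a ratio of chains, since genes differ in capture, and it is given only to set classes side by side.

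Col5a2 was at 561 ± 109 CPM in fibroblast-like cells and 309 ± 75.3 in pericyte-like cells, and Col5a1 at 144 ± 96.9 and, in smooth muscle-like cells, 30 ± 24.8. The third type V gene, Col5a3, was highest in OPC-like cells (208 ± 55.2 CPM) and next in pericyte-like cells (130 ± 72.8), with ranges that overlapped. Astrocyte-like cells held Col1a2 at 377, 205 and 242 CPM and Col1a1 at 54.6, 60.7 and 65.2 CPM in control, ULI and ULC, while Col3a1 had 0, 0 and 2 UMIs there. Astrocyte-like cells thus held type I with hardly any type III mRNA.

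The type VI genes Col6a1, Col6a2 and Col6a3 code for the chains of beaded filaments. All 3 were highest in fibroblast-like cells, at 1560 ± 379, 929 ± 537 and 93.4 ± 47.8 CPM. Outside that class they parted. Mature oligodendrocyte-like cells held 3081 UMIs of Col6a2 and 3 of Col6a1, a Col6a1 to Col6a2 ratio of 0.000974 (0.000201 to 0.00285) against 1.53 (1.32 to 1.78) in fibroblast-like cells. Pericyte-like cells had 79 UMIs of Col6a2 and 4 of Col6a1, a ratio of 0.0506 (0.0135 to 0.135).

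Among the remaining genes that were highest in fibroblast-like cells, the multiplexin Col15a1 was at 3535, 1594 and 767 CPM in control, ULI and ULC and at 0 UMIs in all pericyte-like and smooth muscle-like cells. Col18a1, the source of endostatin, was at 1185, 285 and 441 CPM in fibroblast-like and at 206, 157 and 473 CPM in smooth muscle-like cells, which overlap. The membrane-spanning Col13a1 was at 465, 503 and 134 CPM and Col23a1 at 204 ± 63.1. The fibril-associated Col12a1 was at 227 ± 32.4 CPM and Col16a1 at 83.9 ± 11.9. Col26a1 (157 ± 154) and Col7a1 (92.7 ± 80.5), the anchoring fibril gene of skin, had a library at 0 in this class and were not apart from pericyte-like cells.

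Of the type IV genes, Col4a1 and Col4a2 were shared by the vascular and meningeal classes. Col4a1 averaged 3883 ± 2325 CPM in pericyte-like cells and 2410 ± 787 in fibroblast-like cells, and Col4a2 averaged 3046 ± 904 in pericyte-like and 2375 ± 259 in smooth muscle-like cells. Endothelial-like cells were lower, with 931 ± 404 CPM of Col4a1 and 1241 ± 271 of Col4a2. Col4a5 was at 1282 ± 299 CPM in fibroblast-like and 244 ± 12.6 in smooth muscle-like cells, and its neighbour Col4a6 at 196 ± 30.9 CPM in fibroblast-like cells, and at 9.14 ± 8.05 in the next class, ependymal-like. The Col4a5 to Col4a6 ratio was 6.44 (4.83 to 8.71) in fibroblast-like, 13 (8.72 to 20.2) in choroid plexus-like and 34.3 (18.4 to 72.2) in smooth muscle-like cells. Col4a3 and Col4a4, known from the filtering membrane of the kidney, were highest in choroid plexus-like cells at 14.5 ± 12.6 and 30.7 ± 13.6 CPM, with a ratio of 0.545 (0.424 to 0.698) there and 0.106 (0.0330 to 0.266) in ependymal-like cells.

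Choroid plexus-like cells were marked by the short-chain genes. Col8a1 was at 527, 1001 and 828 CPM in control, ULI and ULC, 4.27-fold above smooth muscle-like cells (184 ± 89.1 CPM), and 90.5% of its UMIs lay in the class. Col8a2 was at 255 ± 26.8 CPM in choroid plexus-like and at 212 ± 74.4 in ependymal-like cells, where Col8a1 had only 31.0, 5.02 and 20.3 CPM. Col9a3 reached 767 ± 164 CPM and Col17a1, a gene of epithelial attachment plaques, 9.85 ± 2.98 CPM. As a mean background level, microglia-like cells held 1.75 CPM of Col8a1 and 2.22 of Col8a2. This background differed between libraries, with summed short-chain genes at 0.369, 0.914 and 10.7 CPM in control, ULI and ULC.

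In the oligodendrocyte lineage the member with the highest mean level was Col9a3 in newly formed cells and Col6a2 in mature cells (90.0 ± 82.4 CPM). The lead in mature cells came from control alone. There Col6a2 was at 185, 45.7 and 39.3 CPM and Col9a3 at 38.8, 96.6 and 85.2 in control, ULI and ULC. Col9a3, a gene of cartilage, was at 1127 ± 120 CPM in newly formed oligodendrocyte-like cells, 237 ± 16.6 in OPC-like and 73.5 ± 30.6 in mature oligodendrocyte-like cells, and Col9a1 at 100 ± 22.5 in the newly formed and 40.7 ± 9.44 in the OPC-like class. Col2a1 was at 43.8 ± 30.7 CPM and Col20a1 at 30.6 ± 16.0 in newly formed oligodendrocyte-like cells. Col9a2 was spread over OPC-like (49.7 ± 12.6), astrocyte-like (46.6 ± 25.4) and newly formed oligodendrocyte-like cells (35.1 ± 13.2), and these did not differ beyond their spread. Col11a1 was highest in OPC-like cells at 140 ± 12.6 CPM.

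Microglia-like cells, the resident macrophages of the brain, held Col27a1, a fibrillar gene, at 310, 222 and 297 CPM in control, ULI and ULC. Their 4 clusters ranged from 183 to 388 CPM. Col15a1 was at 61.0, 39.3 and 50.6 CPM in microglia-like cells, against 1 UMI in all choroid plexus-like cells. Neuron-like cells led for Col25a1, a gene known from neurons, at 117 CPM in ULI and 169 in ULC. Col14a1 was highest in smooth muscle-like cells at only 13.7 ± 14.4 CPM and did not stand apart from endothelial-like cells (9.43 ± 6.88).

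The levels of 4 pairs of classes were then tested on the UMIs summed per class and library, with the library as a term (edgeR's quasi-likelihood test, Benjamini-Hochberg adjusted p at most 0.05 over 13837 genes, of which 36 were members). The classes compared in a pair came from the same libraries. The sums of all named classes with at least 20 cells in a library were fitted together. The p-values thus measure a spread that all these classes share over 3 pooled libraries, and not that of the tested pair alone. Of these libraries, ULI and ULC came from the same mice. Class borders were drawn on genes that may move with the collagens.

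In fibroblast-like over pericyte-like cells 15 members were higher (3.48% of all genes were) and 0 lower (3.71%). At an unadjusted p under 0.05, 18 were higher and 1 lower by edgeR, and DESeq2 called 11 higher and 0 lower. The median log2 fold change of the members was 2.59, or 2.64 with genes absent from one class set to their bound, against -0.06 over all genes. Col1a2 was higher by 2.64 on the log2 scale (SE 0.38, adjusted p 1.4e-06), Col3a1 by 3.17 (SE 0.44, 6.9e-07), Col4a5 by 3.88 (SE 0.42, 1.5e-09), Col18a1 by 3.85 (SE 0.60, 7.6e-06) and Col6a1 by 7.2 (SE 0.78, 2e-09). For the members with 0 UMIs in pericyte-like cells a floor of 3 UMIs over the class gives bounds, and Col1a1 was at least 635-fold higher, Col15a1 at least 318-fold, Col13a1 at least 50.9-fold, Col6a3 at least 13.2-fold and Col11a1 at least 12.7-fold. Col5a1, Col4a6, Col16a1, Col6a2 and Col12a1 were the other 5, with adjusted p of 0.013, 0.019, 0.015, 0.0039 and 0.017. Of these, Col16a1 had 2 UMIs in pericyte-like cells and 21 in fibroblast-like cells. By DESeq2 Col3a1 (adjusted p 0.057), Col6a2 (0.078), Col4a6 (0.26), Col12a1 (0.38) and Col13a1 (0.57) were not called. Leaving out 1 library ended several calls (edgeR adjusted p). Without control these were Col5a1 (0.33), Col4a6 (0.19), Col16a1 (0.17), Col6a2 (0.087) and Col6a3 (0.053), without ULI Col12a1 (0.19), Col6a3 (0.11), Col5a1 (0.097) and Col16a1 (0.052), and without ULC Col16a1 (0.12) and Col4a6 (0.063).

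In smooth muscle-like over pericyte-like cells 2 members were higher (3.04% of all genes) and 3 lower (1.59%). At an unadjusted p under 0.05, 5 were higher and 8 lower by edgeR, and DESeq2 called 2 higher and 2 lower. Col4a5 was higher by 1.77 (SE 0.42, adjusted p 0.0051 by edgeR) and Col18a1 by 2.84 (SE 0.60, 0.0013), whereas Col5a3 was lower with a log2 fold change of -3.37 (SE 0.74, 0.002), Col27a1 with -1.70 (SE 0.47, 0.019) and Col26a1 with -3.20 (SE 0.96, 0.044). The calls of Col27a1 and Col26a1 were each lost in 6 of 13 alternative analyses. Without control the adjusted p was 0.15 for Col27a1 and 0.21 for Col26a1, without ULC 0.051 and 0.47, and without ULI 0.13 for Col27a1. The median over the members was 0.05 as fitted and -0.45 with bounds, so that its sign depends on the genes near 0, and over all genes it was 0.16.

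In pericyte-like over endothelial-like cells 14 members were higher (7.12% of all genes) and 0 lower (8.75%), with 16 higher and 0 lower by edgeR at an unadjusted p under 0.05 and 14 and 0 by DESeq2. Of the 14, Col4a1 and Col4a2 differed least, with 1.79 for Col4a1 (SE 0.35, edgeR adjusted p 0.0001) and 1.08 for Col4a2 (SE 0.31, 0.0089). Col1a2 was higher by 6.46 (SE 0.54, 1e-13), Col5a2 by 5.26 (SE 0.64, 4.9e-09), Col27a1 by 3.83 (SE 0.57, 5.7e-07) and Col8a1 by 4.01 (SE 0.81, 0.00015). Col3a1 had 103 UMIs in pericyte-like and 1 in endothelial-like cells, a ratio of levels of 410 (counting interval 72.0 to 16357). For Col6a2 the ratio was 105 (34.6 to 519), for Col4a5 127 (21.3 to 5189), for Col5a3 73.7 (19.0 to 631) and for Col4a4 19.9 (4.24 to 187), the last of these lost in 5 of 13 alternatives. Col26a1, Col23a1 and Col5a1 had 0 UMIs in endothelial-like cells and were at least 41.2-fold, 23.9-fold and 9.29-fold higher. Without ULI the edgeR adjusted p was 0.17 for Col4a2, 0.79 for Col4a4, 0.18 for Col5a1 and 0.14 for Col23a1. Without ULC it was 0.12 for Col4a4, and without control 0.099 for Col5a1.

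In OPC-like over mature oligodendrocyte-like cells 10 members were higher (21.0% of all genes) and 3 lower (17.5%). Unadjusted p under 0.05 gave 11 higher and 4 lower by edgeR, and DESeq2 called 10 higher and 3 lower. Col11a1 was higher by 7.78 (SE 0.69, edgeR adjusted p 8.9e-13), Col5a3 by 2.86 (SE 0.49, 3.6e-06), Col27a1 by 2.36 (SE 0.38, 1.2e-06), Col9a2 by 2.56 (SE 0.53, 9.9e-05) and Col16a1 by 3.20 (SE 0.64, 4.7e-05). The others that were higher were Col5a1, Col15a1, Col26a1, Col4a1 and Col4a2. Col6a2 was lower, with a log2 fold change of -5.11 (SE 0.60, 4.9e-10), as were Col5a2 (1 UMI against 172, a level 25.5-fold lower, counting interval 4.51 to 1011) and Col23a1 (0 UMIs against 48, at least 2.37-fold lower). Without control the edgeR adjusted p was 0.43 for Col15a1, 0.086 for Col4a1 and 0.11 for Col5a2, and without ULI 0.11 for Col23a1.

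Between conditions, the collagen level of fibroblast-like cells was lower in both libraries of operated mice. Summed collagen came to 38688, 25637 and 16356 CPM for control, ULI and ULC, a log2 ratio to control of -0.59 (95% counting interval -0.68 to -0.51) for ULI and -1.24 (-1.35 to -1.14) for ULC. In single fibroblast-like cells the collagen share of the UMIs had a median of 4.10% in control (0.572% to 9.02%), 1.54% in ULI (0.26% to 5.01%) and 0.876% in ULC (0.129% to 8.36%). The ranges of cells overlap, and the counting intervals of the sums do not hold the spread between cells or animals. A single cell gave 10.1%, 13.2% and 20.8% of the collagen UMIs of the class in control, ULI and ULC. The fibroblast-like cells of control were also deeper, with a median of 4386 UMIs against 2113 and 1599. Among those with 1000 to 4000 UMIs (10, 16 and 17 cells) summed collagen was at 51099, 26402 and 13272 CPM, in the same order and with wider gaps.

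Of 14 members with at least 50 UMIs in the pair, 3 were at least 2-fold lower in ULI than in control (14.3% of all genes measured) and 0 higher (10.2%). These were Col18a1 with a log2 ratio of -2.05 (-2.87 to -1.34), Col15a1 with -1.15 (-1.48 to -0.83) and Col3a1 with -1.0 (-1.27 to -0.74). In ULC, 7 of 13 members were at least 2-fold lower than in control (23.8% of all genes) and 0 higher (14.8%), and all 13 ratios were below 0, with a median of -1.43 against -0.19 over all genes. Col15a1 (-2.20), Col3a1 (-2.10), Col6a2 (-1.98), Col13a1 (-1.79), Col1a1 (-1.60), Col1a2 (-1.44) and Col18a1 (-1.43) made up the 7, and Col13a1 rests on 7 UMIs in ULC. Just inside 2-fold lay Col4a2 in ULC and Col4a1 in ULI, both at -0.99. Col4a1 (-0.32) and Col5a2 (-0.57) were among the least changed.

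ULI lay at least 2-fold above ULC at 5 of 10 members (13.3% of all genes higher and 13.3% lower), which were Col6a2, Col1a1, Col3a1, Col1a2 and Col15a1, with 0 at least 2-fold lower. Of the 10, only Col4a1 went the other way, at 1577 CPM in ULI and 2512 in ULC, a log2 ratio of -0.67 (-1.07 to -0.28). Of the 8 fibroblast markers of the same cells, 6 were lower in both libraries of operated mice than in control, among them Lum at 1159, 721 and 499 CPM. The other 2 were higher in both, Dcn at 3358, 7902 and 4986 CPM and Ogn at 367, 1107 and 479.

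**Figure D3:**
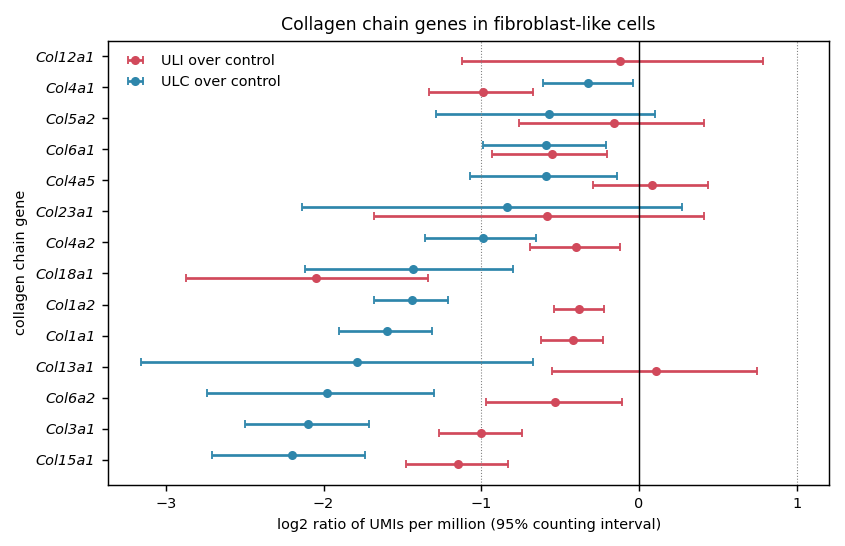
Log2 ratio of CPM to control of each collagen chain gene in fibroblast-like cells, for ULI and ULC, with 95% counting intervals; dotted lines mark 2-fold. All ULC points lie left of 0, and those of Col15a1, Col3a1 and Col6a2 lie farthest left.

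In the vascular classes the sums lay the other way in ULC. Pericyte-like cells held 8069, 7074 and 13097 CPM of collagen in control, ULI and ULC, a log2 ratio of -0.19 (-0.31 to -0.07) for ULI and 0.70 (0.55 to 0.84) for ULC over control. The ratio for ULI became 0.17 when cells with at least 500 genes were clustered anew. Endothelial-like cells held 2142, 1719 and 3078 CPM (-0.32 and 0.52), and smooth muscle-like cells 6746, 6076 and 8434 CPM (-0.15 and 0.32). The ULI over ULC ratios were -0.89, -0.84 and -0.47 in pericyte-like, endothelial-like and smooth muscle-like cells, against 0.65 in fibroblast-like cells. Type IV chains were at 5470, 4951 and 10708 CPM (control, ULI, ULC) in pericyte-like and 4342, 4021 and 6658 in smooth muscle-like cells. Endothelial-like cells held 2036, 1580 and 2908, and fibroblast-like cells 7855, 5587 and 5196. Fibrillar chains were lower in ULC than in control in each of these classes, at 2078, 1615 and 1681 in pericyte-like cells. Smooth muscle-like cells held 1953, 1403 and 933, and fibroblast-like cells 21046, 14597 and 7095. Endothelial-like cells held little, at 32.9, 43.8 and 22.8, with ULI highest. Other cells' markers moved with library in the vascular classes too. The summed choroid plexus markers, in the order control, ULI and ULC, were at 87.0, 275 and 1611 CPM in pericyte-like, 45.5, 210 and 1236 in smooth muscle-like and 60.8, 292 and 1743 in endothelial-like cells. The summed pericyte markers were highest in control in the smooth muscle-like class, at 53048, 28055 and 24572 CPM, and were at 702, 117 and 213 in the endothelial-like class. Their part in the collagen sums was not tested.

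Col4a1, which with Col4a2 makes the common type IV trimer, was at 2938, 2179 and 6531 CPM in pericyte-like cells of control, ULI and ULC, at 1710, 1621 and 3730 in smooth muscle-like cells and at 857, 569 and 1368 in endothelial-like cells, and was highest in ULC in each. Col4a2 was at 2474, 2576 and 4088 CPM, 2356, 2126 and 2643 CPM, and 1172, 1011 and 1540 CPM in the same classes, with smaller differences between ULC and control. The Col4a1 to Col4a2 ratio in ULC was 1.60 (1.35 to 1.89) in pericyte-like, 1.41 (1.30 to 1.53) in smooth muscle-like, 0.888 (0.789 to 0.999) in endothelial-like and 1.64 (1.23 to 2.19) in fibroblast-like cells. In control it was 1.19, 0.726, 0.731 and 1.03, and in ULI 0.846, 0.762, 0.563 and 0.681 in the same order. ULC was thus the highest library for the ratio in all 4 classes.

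**Figure D4:**
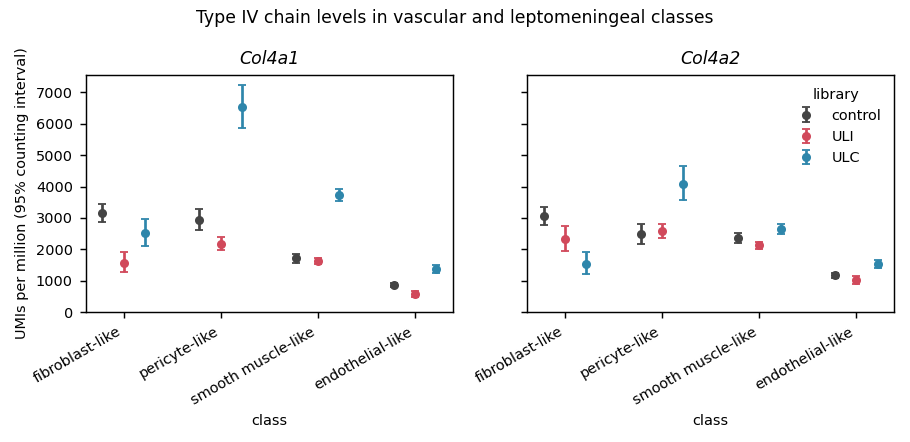
CPM of Col4a1 (left) and Col4a2 (right) in 4 classes by library, with 95% counting intervals. ULC lies above control and ULI for Col4a1 in pericyte-like, smooth muscle-like and endothelial-like cells, by a wider gap than for Col4a2.

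In pericyte-like cells 0 of 6 members were at least 2-fold higher (9.0% of all genes) or lower (4.70%) in ULI than in control. In ULC over control Col4a1 alone of 5 was higher (7.24% of all genes) and 0 lower (8.55%), and in ULI over ULC Col6a2 was higher (13.1%) and Col4a1 lower (6.47%), the former on 55 and 7 UMIs with an interval that holds 0 (-0.09 to 2.43). In endothelial-like cells only Col4a1 and Col4a2 could be measured. Neither was 2-fold higher (4.36% of all genes) or lower (10.9%) in ULI over control, nor in ULC over control (7.89% higher, 8.79% lower), and Col4a1 was lower in ULI than in ULC (10.9% of all genes lower, 5.59% higher).

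In smooth muscle-like cells 3 of 9 members were higher in ULI than in control (7.79% of all genes) and 0 lower (4.61%), namely Col3a1 at 186 against 42.4 CPM, Col8a1 at 281 against 106 and Col6a2 at 86.7 against 39.4. When cells with at least 500 genes were clustered anew, 0 members were 2-fold higher, and the log2 ratio of Col8a1 was -0.19 and that of Col6a2 0.87. In ULC over control 2 of 7 were higher (11%), Col18a1 and Col4a1, and Col1a2 was lower (5.04%). In ULI over ULC Col3a1 and Col5a1 were higher (7.03%) and Col18a1 and Col4a1 lower (9.50%). The Col3a1 UMIs of the ULI library came from 39 of 298 cells, and 1 cell gave 14.3% of them.

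Col11a2, a minor fibrillar gene of cartilage, was lowest in ULI throughout the oligodendrocyte lineage. It was at 182, 57.8 and 348 CPM in control, ULI and ULC in OPC-like cells, at 242, 68.2 and 325 in newly formed and at 86.2, 18.6 and 87.7 in mature oligodendrocyte-like cells. The ULI over control log2 ratios were -1.66 (-2.05 to -1.27), -1.83 (-2.17 to -1.47) and -2.21 (-2.57 to -1.87). Astrocyte-like cells had the same order at lower levels, with 42.2, 17.1 and 59.0 CPM of Col11a2 on 34, 11 and 19 UMIs. In newly formed cells Col2a1 was also lowest in ULI, at 34.9, 18.6 and 78.0 CPM, whereas Col9a3 was at 1243, 1134 and 1004 CPM. In ULI over control, 0 of 8 members were at least 2-fold higher and 2 lower in OPC-like cells (203 and 444 of 7461 genes). In newly formed cells 0 of 9 were higher and 1 lower (619 and 656 of 7698). In mature cells 3 of 9 were higher and 3 lower (734 and 1351 of 10092). The higher ones were Col20a1 (log2 ratio 2.94), Col5a3 (1.67) and Col9a3 (1.31), also higher in ULC over control (3.48, 2.14 and 1.13).

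The clusters behind these classes differed between libraries. In mature oligodendrocyte-like cells cluster 8 held 597 control and 169 ULI cells, cluster 6 held 722 ULC cells and cluster 12 held 441 ULI cells. Within cluster 8 Col11a2 was at 77.7 CPM in control and 17.6 in ULI, and within cluster 1 at 149, 26.4 and 148 CPM in control, ULI and ULC. Within the OPC-like cluster 7 it was at 182, 57.8 and 277 CPM. Within the newly formed clusters 3 (64.1 in ULI and 338 in ULC) and 14 (250 in control and 66.8 in ULI) ULI was again lower. The exception was cluster 12, where ULC had 0 Col11a2 UMIs in 58 cells. Col9a3, higher in ULI than in control over all mature cells, was lower within cluster 8 (32.8 in control and 19.9 in ULI). It was also lower within cluster 1 (30.1 and 11.7) and cluster 12 (290 and 237). Col6a2 in mature oligodendrocyte-like cells was at 185, 45.7 and 39.3 CPM for control, ULI and ULC, and also within cluster 8 (187 and 67.9) and cluster 1 (225, 91.0 and 68.4) control was highest, but not within cluster 12 (15.3, 2.09 and 37.9 CPM on 5, 3 and 2 UMIs).

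**Figure D5:**
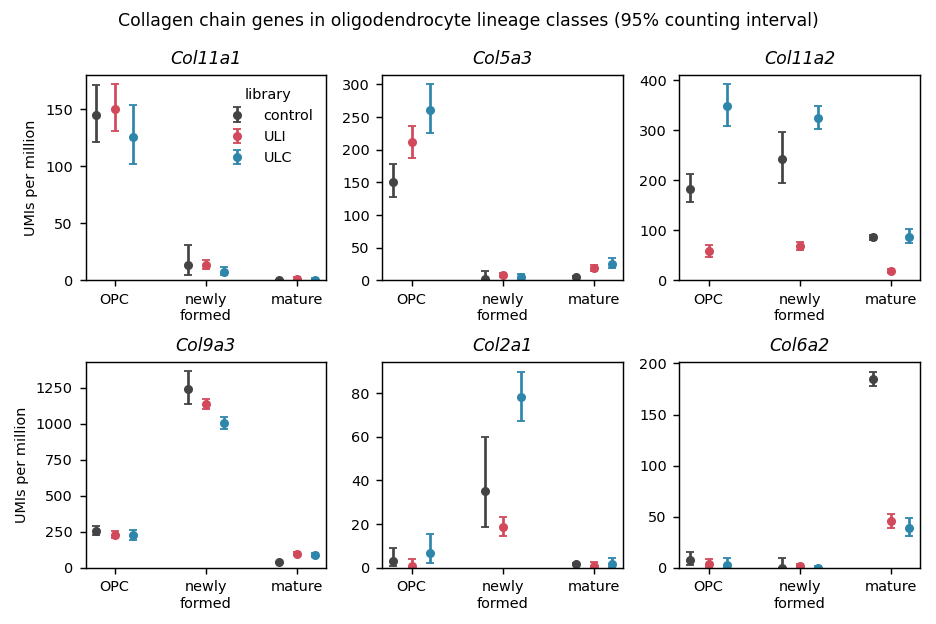
CPM of 6 collagen chain genes in OPC-like, newly formed and mature oligodendrocyte-like cells by library, with 95% counting intervals. Col11a1 and Col5a3 are highest in OPC-like cells, Col9a3 and Col2a1 in newly formed cells, Col6a2 is highest in mature cells of control, and Col11a2 is lowest in ULI in all 3 classes.

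Choroid plexus-like cells, although their number ran from 27 in control to 264 in ULI and 1102 in ULC, held summed collagen at 2128, 2218 and 2151 CPM. The log2 ratios were 0.06 (-0.07 to 0.19) for ULI and 0.02 (-0.11 to 0.14) for ULC over control. Single members were less even than the sum. Col1a2 was at 37.7, 80.0 and 96.1 CPM, Col4a4 at 15.1, 38.9 and 38.2, Col18a1 at 22.6, 11.7 and 56.1, Col4a5 at 121, 85.2 and 55.8 and Col4a2 at 60.3, 10.3 and 20.9 in control, ULI and ULC. Col4a3 and Col5a1 had 0 UMIs in control, against 20.9 and 15.9 CPM in ULC. The control values rest on few UMIs, namely 10 of Col1a2, 4 of Col4a4, 6 of Col18a1, 32 of Col4a5 and 16 of Col4a2. Col8a1 was lower in control than in the others within cluster 13, at 526, 1025 and 844 CPM. Microglia-like cells held 401, 296 and 415 CPM.

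Genes that act on collagen were listed by role. Of 20 genes of collagen modification and folding, 0 of 19 tested were higher (3.48% of all genes) or lower (3.71%) in fibroblast-like than in pericyte-like cells by edgeR, with 3 higher and 1 lower at an unadjusted p under 0.05 and 2 higher and 0 lower by DESeq2. Sparc, a collagen-binding protein, was at 7195 ± 174 CPM in pericyte-like, 6830 ± 2733 in fibroblast-like, 6588 in smooth muscle-like and 6689 in endothelial-like cells, and did not follow the collagen level. P4hb, a subunit of prolyl hydroxylase, led in fibroblast-like cells (403 ± 366 CPM), Mia3, which loads procollagen for export, in pericyte-like cells (218 ± 42.0), Plod1, a lysyl hydroxylase, in fibroblast-like (127 ± 28.1) and P4ha1 in pericyte-like cells (165 ± 51.1). These 4 leads lay within the spread, with perivascular macrophage-like cells next for P4hb (301 ± 297 CPM), OPC-like for Mia3 (190 ± 29.5), mature oligodendrocyte-like for Plod1 (121 ± 13.3) and microglia-like for P4ha1 (148 ± 28.2).

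Of the genes of procollagen cleavage and crosslinking, 4 of 10 tested were higher (3.48% of all genes) in fibroblast-like than in pericyte-like cells and 0 lower (3.71%) by edgeR (2 lower at an unadjusted p under 0.05, and 2 higher and 0 lower by DESeq2). Lox, which crosslinks collagen, was at 853 ± 600 CPM in fibroblast-like and 816 ± 222 in smooth muscle-like cells and higher by 4.17 on the log2 scale than in pericyte-like cells (SE 0.64, edgeR adjusted p 4.4e-06). Pcolce, an enhancer of procollagen cleavage, was at 471 ± 181 CPM in fibroblast-like cells and higher by 2.63 (SE 0.63, 0.0038). Its relative Pcolce2 led in choroid plexus-like cells (161 ± 48.8 CPM) and Pxdn, which crosslinks type IV collagen, in pericyte-like cells (285 ± 13.6). Bmp1, a procollagen protease, had its highest mean in astrocyte-like cells (90.6 ± 33.3 CPM), next to 77.3 ± 40.7 in newly formed oligodendrocyte-like cells, and astrocyte-like cells were its highest class in 0 of 3 libraries.

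Of the collagen receptors, 0 of 9 tested were higher (3.48% of all genes) and 3 lower (3.71%) in fibroblast-like than in pericyte-like cells by edgeR, as also at an unadjusted p under 0.05 and by DESeq2. Itgb1 was highest in smooth muscle-like (3323 ± 404 CPM) and Itga1 in pericyte-like cells (3061 ± 346), against 814 and 177 CPM in fibroblast-like cells. Ddr2, a receptor for fibrillar collagen, was at 190 ± 75.5 CPM in fibroblast-like and 190 ± 73.0 in pericyte-like cells. Ddr1, a collagen-binding kinase, had its highest mean in ependymal-like (654 ± 134, with 516 ± 248 in mature oligodendrocyte-like cells), Lair1, an inhibitory receptor, in microglia-like (599 ± 126) and Adgrg1 in astrocyte-like cells (562 ± 250).

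Of 13 basement membrane partners tested, 1 (Lama1) was higher (3.48% of all genes) and 3 lower (3.71%) in fibroblast-like than in pericyte-like cells by edgeR, and 0 higher and 3 lower by DESeq2. In pericyte-like over endothelial-like cells 6 were higher (7.12%) and 1 lower (8.75%) by edgeR, and 5 and 1 by DESeq2. Nid1, which links laminin to type IV collagen, was at 4045 ± 1935 CPM in fibroblast-like and 4037 ± 279 in pericyte-like cells. Lamc1 (2608 ± 214), Lamb1 (1278 ± 130) and Agrn (574 ± 119) had their highest mean in pericyte-like and Lama5 in smooth muscle-like cells (436 ± 185), but Lamb1 was within the spread of fibroblast-like cells (1072 ± 646). In ULC over control, Lamb1, Lamc1 and Nid1 were at least 2-fold lower in fibroblast-like cells, among 6 measured (23.8% of all genes), and 0 higher (14.8%). In the other lists P4hb was higher and Sparc lower among 3 measured, Lox higher among 2 and Ctsk lower among 5. The 1 receptor measured was neither. In ULI over control Lox was higher (10.2% of all genes), and Serpinh1, Lamc3 and Ctsk were lower (14.3%).

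Of the genes of collagen degradation, 2 of 7 tested were higher (3.48% of all genes) in fibroblast-like than in pericyte-like cells and 0 lower (3.71%) by edgeR (3 and 0 at an unadjusted p under 0.05, and 2 and 0 by DESeq2). Mmp2, a gelatinase, was at 508 ± 77.2 CPM in fibroblast-like cells and higher by 4.82 (SE 0.75, edgeR adjusted p 5.7e-06). The inhibitor Timp2 was at 599 ± 188 CPM in smooth muscle-like and 590 ± 278 in ependymal-like cells, and Timp3 at 320 ± 96.2 in fibroblast-like and 279 ± 138 in smooth muscle-like cells, so that neither gene's lead went beyond the spread. Timp4 was highest in astrocyte-like cells in all 3 libraries (514 ± 73.4 CPM). Ctsk, a collagen-degrading protease, was at 159 ± 181 CPM in fibroblast-like and 149 ± 22.5 in pericyte-like cells.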

How the data were processed

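The deposited table holds UMI counts (whole numbers) per gene and cell column of the 3 libraries. Per the labels, the authors used CASAVA 1.8, UMI-tools and Seurat with mm10; the aligner, annotation, strand setting and cell calling are not stated in the records or the methods. The records name more than 1 single-cell platform. Cell columns carry serial names, so barcodes shared between libraries could not be counted. Members and gene lists were chosen with earlier results of these data known.

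Cells with at least 200 genes (13964 of 14876 barcodes) were kept. Scanpy 1.11.5 (Python 3.11.15) scaled each cell to 10000 counts, took ln(1+x), 2000 variable genes without collagens, 30 components and 20 neighbours, and clustered by Leiden at resolution 1.0 (seed 1). A cluster was named where at least 3 markers of a class had 10 UMIs, the mean log2 fold of its markers over the median cluster was at least 1.5 and the next class was lower by at least 0.5, and 438 cells stayed unnamed. A second class within 2 with a marker among the top genes also left a cluster unnamed, except between smooth muscle and pericyte. The smooth muscle-like cluster, at 6.25 for smooth muscle and 5.47 for pericyte with Rgs5 among its top genes, was named through this exception. Doublets were kept, and were left out in an alternative (Scrublet, with the top 5% of scores where it called under 0.5%).

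UMIs were summed per class and library where there were at least 20 cells. Class pairs were tested with edgeR 4.0.16 (R 4.3.3; TMM, filterByExpr, library as a term), and DESeq2 1.42.0 was an alternative. Simulated counts were used to test the code. Conditions were compared by the log2 ratio of CPM with an exact conditional interval, which covers counting error only, for genes with at least 50 UMIs in the pair; 2-fold was the limit named. All members with at least 50 UMIs and the 5 partner genes per list with most UMIs are named. Positions are those of GENCODE M21 and promoter windows those of RefSeq (GRCm38.p6), matched by symbol for 34 of 43 members. Several members overlap other genes (Col9a3 with Tcfl5, Col18a1 with Slc19a1, Col4a1 with Col4a2), whose reads may not be told apart.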

Additional observations from a re-analysis of the deposited data

Results flagged for a closer look

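The summed collagen level in fibroblast-like cells lay in the opposite direction to that in 3 vascular classes. The sums mix families, and fibrillar chains alone were lower in ULC than in control in the fibroblast-like and vascular classes alike. For ULC over control the log2 ratio was -1.24 in fibroblast-like cells, against 0.70 in pericyte-like, 0.52 in endothelial-like and 0.32 in smooth muscle-like cells. For ULI over ULC it was 0.65 in fibroblast-like cells, against -0.89 in pericyte-like, -0.84 in endothelial-like and -0.47 in smooth muscle-like cells. These results stand here because the ratios of the classes differ in sign, and the difference was not tested, since each condition had 1 library.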

How the results depend on the processing

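Each condition is 1 library, so its ratios hold no spread between animals, and fibroblast-like cells numbered at most 29 per library. No paired analysis was possible because each group has 1 sample. Alternatives with cells left out of the same classes, with fibroblast-like cells of 1000 to 4000 UMIs, and with the mean over cells for the ratios were chosen after seeing the data. Reclustering at resolution 0.5, without cells over 20% mitochondrial or without doublets gave no separate pericyte-like and smooth muscle-like classes, and with at least 500 genes no fibroblast-like contrast, so those values are missing. Causes were not tested.

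With at least 500 genes, reclustered, 2 values changed sign: the pericyte-like sum for ULI over control became 0.17, and Col8a1 in smooth muscle-like cells for ULI over control became -0.19. The same setting gave -0.40 for the pericyte-like ULI over ULC sum, and -0.79 and -0.49 for the smooth muscle-like ULI over ULC and ULI over control sums. The fibroblast-like sum for ULC over control was -1.54 with TMM factors, -1.38 with median-of-ratios factors, -1.58 as a mean over cells and -1.94 in cells of 1000 to 4000 UMIs. For ULI over control the fibroblast-like sum was -0.88, -0.78, -1.14 and -0.95 in the same order, and -0.49 without doublets, reclustered or not. For ULI over ULC it was 0.44 as a mean over cells and 0.99 in cells of 1000 to 4000 UMIs. TMM factors gave -0.69 for the pericyte-like ULI over ULC sum. Choroid plexus-like collagen was at 2255 and 2256 CPM without cells over 20% mitochondrial (reclustered, and in the same classes) and at 2087 as a mean over cells.

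Counts of members past 2-fold moved as follows. A floor of 20 UMIs gave 7 and 11 lower in fibroblast-like ULI and ULC over control, 2 higher and 1 lower in pericyte-like ULC over control, 1 higher and 2 lower in pericyte-like ULI over control, 3 lower in pericyte-like ULI over ULC and 5 higher in smooth muscle-like ULI over control. A floor of 200 gave 3 higher in fibroblast-like, 0 in pericyte-like and 0 in smooth muscle-like ULI over ULC, and 1 in smooth muscle-like ULI over control. Fibroblast-like ULI over ULC had 3 higher without cells over 20% mitochondrial and in cells of 1000 to 4000 UMIs, where ULI over control had 5 lower. Pericyte-like ULI over ULC had 0 higher at resolution 2.0, without doublets, without cells under 500 genes and with collagens in the clustering, and 2 with 500 genes, reclustered. Pericyte-like ULC over control had 2 lower at resolution 2.0 and without doublets, and 1 with collagens in the clustering and with 500 genes, reclustered, where ULI over control had 1 higher. Smooth muscle-like ULI over ULC had 1 higher without doublets or cells under 500 genes and 0 with 500 genes, reclustered, as had ULI over control.

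In fibroblast-like over pericyte-like cells 1 member was lower at resolution 2.0, without doublets, with collagens in the clustering and with no filter on low counts, and 1 to 2 with 1 library left out. In smooth muscle-like over pericyte-like cells 1 was lower without the library term and 1 with control or ULC left out. Of the other counts, sums and levels, 97 of contrasts, 265 of 2-fold ratios, 118 sums and 126 class levels stayed within their limits.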
